A study of Mus musculus with 118 samples.

Results

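Expression of the genes that make, load, take up and break down GABA was described in single somatostatin-positive (SOM+) interneurons of mouse neocortex. The 6 genes were chosen by name, out of 23998 gene symbols in the count table, and all 6 were found there: Gad1, Gad2, Slc32a1, Slc6a11, Abat and Aldh5a1. Gad1 was the most abundant of them per length, Gad1, Gad2 and Slc32a1 were read together in 91.7% of the cells kept, and Slc6a11 was read in 12.8%. None of the 5 genes with enough reads differed between S1 and V1 in L4 by 1 log2 unit, beside 14.9% of all genes tested. In 4 further S1 L4 cells without a read of Sst, the somatostatin gene, the ratio of Gad1 to Gad2 was above that of every SOM+ cell of S1 L4.

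GABA, the main inhibitory transmitter of the cortex, is made from glutamate by glutamate decarboxylase. Gad1 and Gad2 encode its isoforms GAD67, found throughout the neuron, and GAD65, found mainly at axon terminals, and both need pyridoxal phosphate as a cofactor. Slc32a1 encodes VGAT, which loads GABA into synaptic vesicles. After release GABA is taken up again by plasma membrane transporters, among them GAT-3 (Slc6a11), best known from astrocytes. Abat encodes GABA transaminase, which removes the amino group in mitochondria, and Aldh5a1 encodes succinic semialdehyde dehydrogenase, which passes the product on to the citric acid cycle.

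RNA was drawn into the recording pipette from single cells of acute slices of adult SOM-Cre/Ai9 mice (Patch-seq) and read with a Smart-seq2 protocol without strand or molecular identifiers. In these mice, Cre driven from the Sst locus switches on the red marker tdTomato, so that a cell can be red because it expresses Sst or because it once did. No treatment or genotype differed between the groups, which are primary visual cortex (V1) and primary somatosensory cortex (S1), each in L4 and L5. By the labels, 44 cells were from V1 L4, 19 from V1 L5, 39 from S1 L4 and 16 from S1 L5, the order in which values of the groups are listed here.

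A cell was kept when it had 1500 or more detected genes, at least 1 Sst read, and Slc17a7 counts not above the sum of Gad1 and Gad2. This left 42, 17, 34 and 16 cells. Of the others, 4 had too few genes, 1 had more Slc17a7, the vesicular glutamate transporter of excitatory neurons, and 4 had no Sst read and are described apart. Since Gad1 plus Gad2 chose the cells, the presence of either gene is in part fixed by the rule. The lowest sum in a kept cell was 25 counts. The label SOM+ was checked with other genes of these interneurons, and Lhx6, Elfn1 and Grin3a were read in all but 21, 15 and 5 of the kept cells. Of the markers of other interneurons, Pvalb was read in 36 kept cells, Lamp5 in 13 and Vip in 3. Mbp, an oligodendrocyte marker, was read in 85. The kept cells held 97904 to 3295232 counts, with a median of 1111833, and 1978 to 9200 detected genes. Since no animal is named in the labels, an area and layer counted as 1 sample, and nothing was tested. Errors are the SD over cells, the SD over days or exact 95% intervals, which cover counting error only. Days 1 to 9 are the dates that open the sample titles. The labels do not say what was done on them. The paper gives fewer mice for its Patch-seq experiments than there are days here, so that the days cannot be counted as separate animals.

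Per length, in the RPKM values (read counts divided by transcript length and library size) that the authors deposited, the genes differed in level. Over the kept cells, the median RPKM was 494 for Gad1, 192 for Gad2, 72.3 for Abat, 28.6 for Slc32a1, 0.137 for Aldh5a1 and 0 for Slc6a11. Gad1 was above Gad2 in 98 cells on this scale, and Gad2 above Abat in 98. The order of Abat and Slc32a1 was looser, with Abat above in 79 cells. Aldh5a1 was above Slc6a11 in 53 cells and equal to it in 44.

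**Figure D1:**
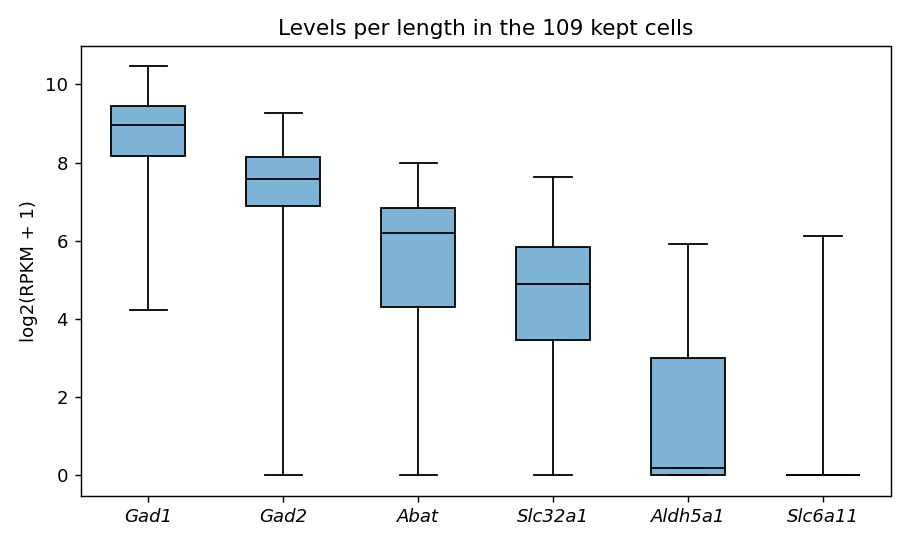
Level per length of the 6 genes in the kept cells, as log2(RPKM + 1). Boxes span the quartiles, the line is the median and the whiskers reach the lowest and highest cell. Gad1 is highest, Gad2 comes next, and Aldh5a1 and Slc6a11 have medians near 0.

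Gad1 was read in each kept cell. Its level was taken as CPM, the counts of a gene scaled to a common total per cell. In V1 L4 the median was 1347 CPM, the lowest cell 52.1 and the highest 4429.8. V1 L5 had a median of 1597, a lowest cell of 81.7 and a highest of 4244. For S1 L4 these were 1712, 262 and 3417, and for S1 L5 1368, 397 and 2170.3. The ranges of the 4 groups overlapped over most of their length. On the log2(CPM + 1) scale, the mean was 10.08 ± 1.43 (SD over 42 cells) in V1 L4 and 10.53 ± 0.87 (SD over 34 cells) in S1 L4. The lowest Gad1 levels, under 100 CPM, lay in V1, in both layers.

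Gad2 was read in all but 2 of the kept cells, 98.2% (95% Clopper-Pearson interval 93.5 to 99.8%). Its group medians were 851, 1306, 1075 and 988 CPM, and its highest cells reached 3337, 2074, 2975 and 2402 CPM. The order of the groups was thus not that of Gad1, and the spread was wider, 9.56 ± 1.86 in V1 L4 and 9.94 ± 1.04 in S1 L4 (log2(CPM + 1), SD over 42 and 34 cells). The 2 cells without a Gad2 read were a V1 L4 cell of 998775 counts with 85 Gad1 reads, and a V1 L5 cell of 149024 counts with 25. By counting error alone, a count of 0 allows up to 3 counts, which is 3.004 CPM in the first and 20.1 CPM in the second. The V1 L5 cell had no read of the other 4 members either.

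Gad1 and Gad2 rose and fell together over cells. Pearson's r of log2(CPM + 1) was 0.55 and Spearman's rho 0.51 over the kept cells, and r was 0.54 with the group means subtracted. Within groups r was 0.61 in L4 of either area, 0.48 in V1 L5 and 0.16 in S1 L5. Spearman's rho was 0.63 in V1 L4, 0.19 in V1 L5, 0.50 in S1 L4 and 0.36 in S1 L5, so that by either measure the relation was weaker in L5. Each point is 1 library, so that its quality enters both genes. Gad1 had an r of -0.52 with Rn45s, the ribosomal RNA precursor, and of 0.53 with the log10 of the total count, and Gad2 of -0.47 and 0.45. The part of library quality in the relation of Gad1 and Gad2 was not tested.

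**Figure D2:**
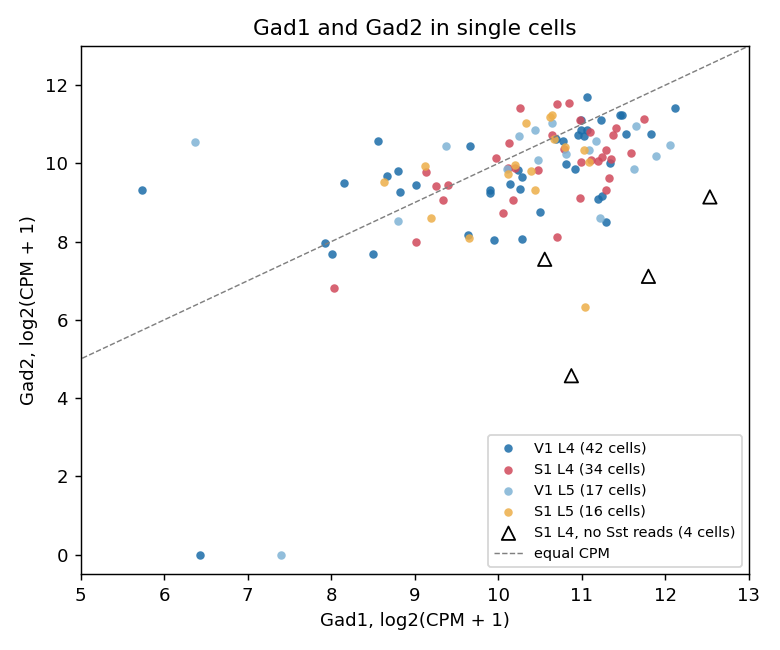
Gad1 against Gad2 in each cell, both as log2(CPM + 1), with the area and layer in colour, the 4 S1 L4 cells without Sst reads as triangles and equal CPM as a dashed line. Most cells lie in 1 cloud near or below the line, the triangles lie well below it, and 2 cells have no Gad2 read.

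Both genes lie on chromosome 2, far apart, Gad2 at chr2:22622205-22693874 and Gad1 at chr2:70553072-70602014, on the plus strand (GRCm38, GENCODE). The sequences just upstream of their RefSeq start sites (GRCm38.p6) are shown because these 2 members varied together. Each begins 250 bases before the start site and stops before the next annotated exon base. The Gad1 stretch lies inside the annotated span of the gene, downstream of its first exon base. Capitals mark CCAAT and TATAAA on either strand, the letters searched for together with TAATTA. No searched motif overlapped another.
Gad1, chr2:70561879-70562041, plus strand: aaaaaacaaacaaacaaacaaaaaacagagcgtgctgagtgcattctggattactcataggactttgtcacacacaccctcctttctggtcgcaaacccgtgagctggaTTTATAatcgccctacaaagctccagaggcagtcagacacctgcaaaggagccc
Gad2, chr2:22622077-22622204, plus strand: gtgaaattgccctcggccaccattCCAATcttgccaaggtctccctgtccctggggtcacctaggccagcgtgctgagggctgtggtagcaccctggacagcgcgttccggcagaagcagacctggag
The printed Gad1 stretch held 1 TATAAA, read on the minus strand, and no CCAAT, and that of Gad2 held 1 CCAAT and no TATAAA. Neither held TAATTA. In the full windows of 300 bases, from 250 before to 50 after the start, Gad1 held 1 TATAAA, Gad2 held 2 CCAAT, Aldh5a1 1 CCAAT, and Slc32a1 and Slc6a11 none of the 3 motifs. Of 32851 such windows of all genes, 37.4% held CCAAT, 13.6% TATAAA and 5.29% TAATTA. CG was found 21 times in the window of Gad1, 14 times for Gad2, 17 for Slc32a1, 32 for Slc6a11 and 24 for Aldh5a1, beside a median of 7 over all windows. The table had windows for 5 of the 6 genes.

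Slc32a1, on the same chromosome at chr2:158610767-158615748, was read in 39 of 42, 15 of 17, 31 of 34 and 16 of 16 cells of the groups. Its medians were close, 75.8, 70.2, 87.2 and 87.4 CPM, and its highest cells reached 482, 225, 298 and 258 CPM. The spread between cells was larger than for either Gad gene, 5.40 ± 2.47 in V1 L4 and 5.56 ± 2.46 in S1 L4 (log2(CPM + 1), SD over 42 and 34 cells). The 8 cells without a read held 149024 to 1001189 counts. By counting error alone this allows at most 2.996 to 20.1 CPM, below the median of 81.8 CPM of the cells with reads. RNA lost before sequencing is not covered by this bound. These 8 cells had a median of 4081.5 detected genes and the others of 6738. The exons of Slc32a1 share bases with Gm14205 on the opposite strand, and the counts cannot separate the 2 genes. The exons of Gad1, Gad2, Slc6a11 and Abat share bases with no other annotated gene.

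Reads of Gad1, Gad2 and Slc32a1 together, both decarboxylase genes and the vesicular loader, were found in 38 of 42 V1 L4 cells (90.5%, interval 77.4 to 97.3%), 15 of 17 V1 L5 cells (88.2%, 63.6 to 98.5%), 31 of 34 S1 L4 cells (91.2%, 76.3 to 98.1%) and 16 of 16 S1 L5 cells (100%, 79.4 to 100%). The intervals (95% Clopper-Pearson) overlapped throughout. With every cell thinned to 250000 reads, 96 cells held all 3 and 10 did not, and with at least 5 counts of each gene asked for, 94 kept cells did.

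**Figure D3:**
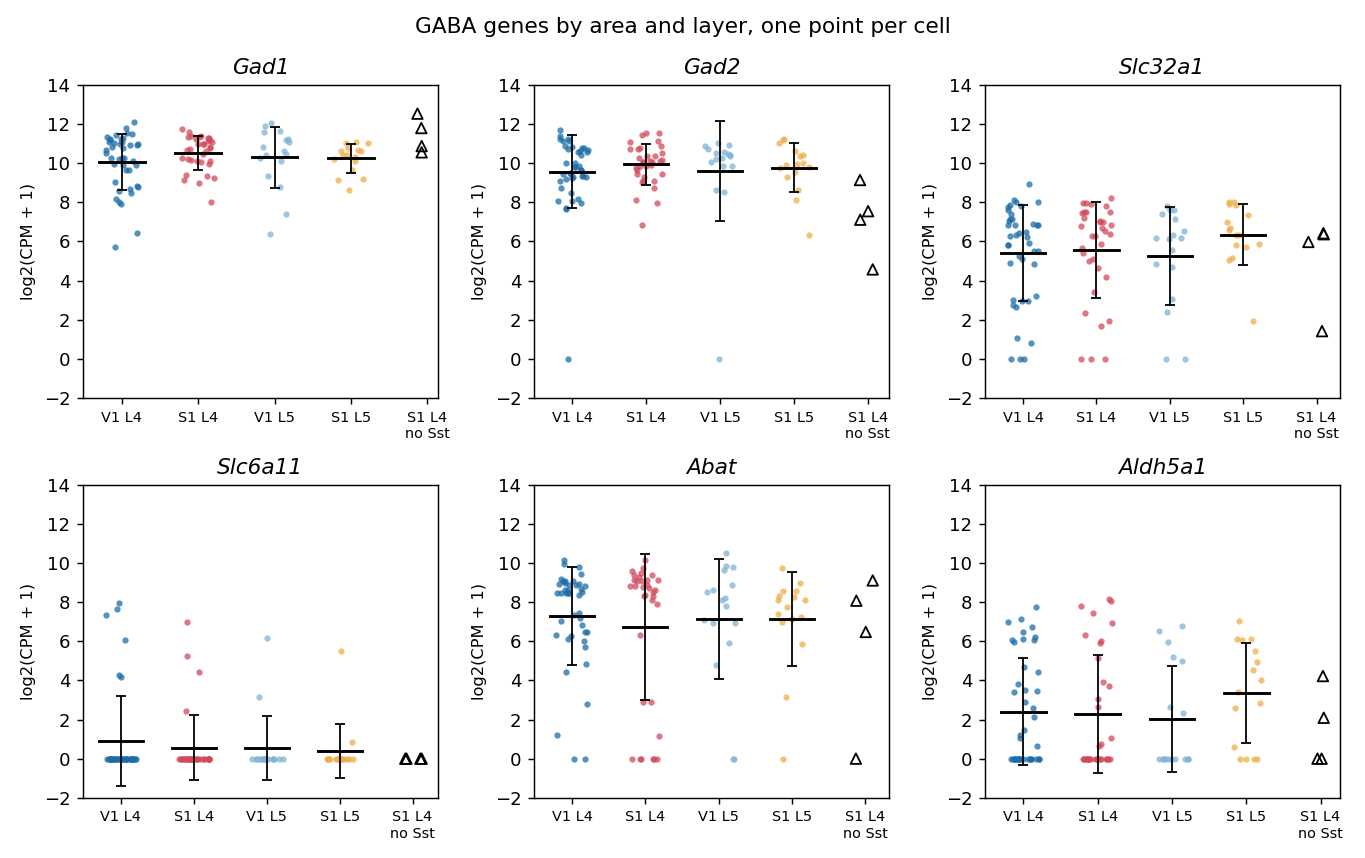
Level of each gene as log2(CPM + 1), with 1 point per cell, by area and layer. Bars and whiskers give the mean and SD over cells, and triangles are the 4 S1 L4 cells without Sst reads. The groups overlap for each gene, Abat splits into a main cloud and cells at or near 0, and most cells have no Slc6a11 read.

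On the uptake side, Slc6a11 (chr6:114131241-114249952) was read in 6 of 42, 2 of 17, 4 of 34 and 2 of 16 cells of the groups, 12.8% in all (interval 7.20 to 20.6%). The pooled level was 12.02 CPM in V1 L4 (exact 95% Poisson interval 11.1 to 12.99), 4.04 in V1 L5 (3.20 to 5.05), 5.89 in S1 L4 (5.23 to 6.62) and 1.70 in S1 L5 (1.17 to 2.39). These pooled levels rest on few cells, since the 14 cells held 1 to 259 reads each, and they do not rank the groups. The cells without a read had a median of 1079183 counts, and the 14 cells of 1142872. Slc6a11 fell short of the filter for comparisons, which asked for 10 cells with 32 counts or more.

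The astrocyte markers Aqp4, Gfap, Aldh1l1, Gja1, Slc1a3, S100b and Aldoc were summed beside it. The sum ran from 0 to 8521 CPM with a median of 343 in the 14 cells with Slc6a11 reads, and from 0 to 2905 CPM with a median of 120.8 in the other 95. The highest sum and 197 CPM of Slc6a11 were in the same V1 L4 cell, which held 213 reads of Aqp4, the astrocyte water channel, and 857 of Gja1, the astrocyte gap junction protein. In 3 of the 14 cells none of the 7 markers was read, and Aqp4 was read in 2 of the 14. Of the other 95 cells, 17 had no read of the 7 markers, and Aqp4 was read in 5. Aldoc and S100b were read in 71 and 55 of the kept cells, and each other marker in 21 or fewer, so that the medians rest mainly on Aldoc and S100b. Over the kept cells Slc6a11 had an r of 0.15 with the astrocyte markers (rho 0.12). The part of astrocyte RNA in the Slc6a11 reads was not tested beyond these values. Of other carriers of the list that take up GABA, Slc6a12 was read in 10 cells, up to 53.1 CPM, and Slc6a13 in 1.

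Among the enzymes of breakdown, Abat (chr16:8513429-8621568) was read in 40 of 42, 15 of 17, 28 of 34 and 15 of 16 cells of the groups. Its medians were 349, 274, 407 and 244 CPM, and its highest cells reached 1139, 1473, 1139 and 846 CPM. Most cells held a high level, few a low one, and 11 none. The 11 cells without a read held up to 1117289 counts, and the 3 counts that a 0 allows came to at most 30.6 CPM, far below the median of 353 CPM in the cells with reads. They came from 6 days and each had Gad1 reads, 8 to 1310 of them. They had a median of 4975 detected genes, and the cells with reads had 6787.5. Whether the missing reads were lost in the library was not tested.

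Aldh5a1 (chr13:24907579-24937661, minus strand) was read in 23 of 42, 7 of 17, 16 of 34 and 12 of 16 cells of the groups, 53.2% over all. Its medians were 1.22, 0, 0 and 12.5 CPM, and its highest cells reached 218, 107.7, 284 and 127.8 CPM. The detection intervals of the groups overlapped, 18.4 to 67.1% in V1 L5 and 47.6 to 92.7% in S1 L5. Both breakdown enzymes were read together in 56 cells, and the 5 members other than Slc6a11 in 53. Aldh5a1 shares exon bases with 4932702P03Rik and 9330162012Rik on the opposite strand, and its counts can hold reads of both.

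Among the other pairs of members, Gad1 and Abat had the next highest Pearson's r, 0.50 over the kept cells (Spearman's rho 0.54), and Gad2 and Slc32a1 had 0.35 (0.13). Aldh5a1 had an r of 0.25 with Abat and of 0.02 with Slc32a1, and Slc6a11 lay between -0.07 and 0.13 with the other 5 members. Correlations with Sst lay between -0.0018 and 0.14 over the 6 members.

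The genes whose levels over the kept cells were most like each member were ranked by Pearson's r among 9993 genes past the filter. For Gad1 they were Snap25 (0.60), Cplx1 (0.60) and Ndrg4 (0.58), and Gad2 ranked 12. For Gad2 they were Syn1 (0.66), Mdh1 (0.63) and Scamp5 (0.62), and Gad1 ranked 12. For Slc32a1 they were Epdr1 (0.50), Rab3b (0.48) and Atp6v1b2 (0.47). For Abat they were Cplx1 (0.64), 1110004F10Rik (0.58) and Rnf187 (0.58), so that Cplx1 stood beside both Gad1 and Abat. For Aldh5a1 they were Gpr107 (0.50), Tm6sf1 (0.40) and Mypop (0.40), and for Slc6a11 Cd2ap (0.40), Smpdl3a (0.38) and S100a16 (0.38). The median r of all genes with Gad1 was 0.11. By Spearman's rho, none of the 3 genes stayed among the first 3 for Gad2, Slc32a1 and Slc6a11, 1 stayed for Gad1 and for Abat, and 2 for Aldh5a1.

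The balance of the 2 decarboxylase genes was followed cell by cell, as log2 of Gad1 over Gad2 counts with 0.5 added to each. The group medians were 0.38, 0.56, 0.62 and 0.39. Single cells lay between -3.60 and 7.42 for V1 L4, -4.11 and 5.67 for V1 L5, -1.15 and 2.58 for S1 L4, and -0.89 and 4.72 for S1 L5. The medians lay within 0.25 of each other, and the SD of the medians over days was 0.44, 0.47, 0.81 and 0.87. Gad1 had more counts than Gad2 in 78 of the kept cells. Counts are not corrected for length, and in RPKM the group medians of the log2 ratio were higher, 1.14, 1.28, 1.42 and 1.19. S1 minus V1, the median ratio differed by 0.24 in L4 (SD over 5 days 0.86) and by -0.17 in L5 (SD over 4 days 1.07). L5 minus L4, over days 1 to 6 alone, it differed by 0.22 in V1 (SD over 2 days 0.51) and by -0.55 in S1 (SD over 3 days 0.30), where it was lower in L5 on 3 of 3 days. The S1 L4 cells of days 1 to 6 had a median of 0.94, above the 0.62 of all kept S1 L4 cells.

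**Figure D4:**
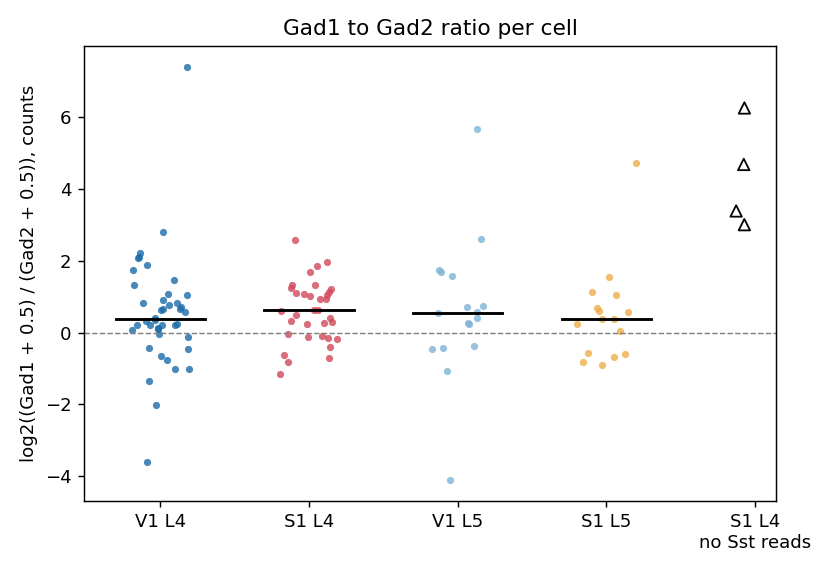
Log2 ratio of Gad1 to Gad2 counts, 0.5 added to each, with 1 point per cell, the median of each group as a bar and equal counts as a dashed line. Group medians lie between 0.38 and 0.62, and the 4 cells without Sst reads lie between 3.01 and 6.26, above every kept S1 L4 cell.

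The 4 cells without an Sst read were all from S1 L4, 1 each from days 2, 3, 4 and 5. Their Gad1 levels were 3556, 1503, 5923 and 1876 CPM in that order, and 2 of them were above the highest kept S1 L4 cell. Their Gad2 levels were 137.4, 186, 564 and 22.8 CPM, all below the S1 L4 median and 1 below the lowest kept S1 L4 cell. On the log2(CPM + 1) scale the mean of these cells minus that of the kept S1 L4 cells was 0.91 for Gad1 and -2.85 for Gad2.

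The log2 Gad1 to Gad2 ratio of these cells was 4.69, 3.01, 3.39 and 6.26, beside a highest value of 2.58 in the 34 kept S1 L4 cells, and each was above every kept S1 L4 cell of its own day, the highest of which were 2.58, 1.03, 1.24 and -0.40. Of all kept cells, 3 reached 3.01, and 2 of those had no Gad2 read. All 4 cells stood above the kept S1 L4 cells also after thinning to 250000 reads (3.09 to 5.95 against 2.41) and in RPKM (3.81 to 7.16 against 3.38). All 4 held reads of Pvalb, the marker of fast-spiking interneurons, with 844, 601, 2662 and 29 counts or 758, 502, 921 and 94.4 CPM. Pvalb was read in 18 of the 34 kept S1 L4 cells, up to 257 CPM, so that the cell of day 5 lay within their range and the other 3 above it. The authors left out 3 fast-spiking cells that had no somatostatin reads and mapped to a Pvalb type. By their cell numbers per area and layer, 3 of the 4 cells described here were those left out. The remaining cell was counted by the authors with the Sst types. Which of the 4 it was was not tested, and the 4 may differ in kind. Over the kept cells the ratio had an r of 0.16 with Pvalb (rho 0.21), a weak relation.

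The other members did not set the 4 cells apart. Slc32a1 was at 81.7, 1.67, 61.9 and 84.7 CPM, Abat at 0, 268, 550 and 87.9 CPM, and Aldh5a1 at 0, 0, 17.7 and 3.26 CPM, all within the range of the kept S1 L4 cells. No Slc6a11 read was found in them, as in 30 of the 34 kept S1 L4 cells. With 4 cells, which the absence of Sst reads picked out, these values are a description.

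The first comparison asked whether SOM+ cells of L4 differ between S1 and V1, 34 against 42 cells. The difference of the mean log2(CPM + 1), S1 minus V1, was 0.45 for Gad1 (SD over 5 days 0.50), 0.38 for Gad2 (0.67), 0.16 for Slc32a1 (0.78), -0.59 for Abat (2.13) and -0.12 for Aldh5a1 (2.03). Of these 5 members 0 passed 1 log2 unit, beside 14.9% of 9993 genes, or 3.79% when the difference also had to exceed its SD over days. None of the differences of these 5 members exceeded that SD. The median difference of the 5 was 0.16, and that of all genes 0.0094. Abat differed by -2.77 and -3.60 log2 units on days 2 and 5 and by 1.29 on day 8. Its difference was -1.49 over days 1 to 6 and 0.24 over days 7 to 9, and that of the medians was 0.22. Averaged within days, Gad2 came to -0.06 and Slc32a1 to -0.08, the opposite sign to that over all cells.

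Between the areas in L5, 16 S1 cells were set against 17 V1 cells. Gad1, Gad2 and Abat differed by -0.06 (SD over 4 days 0.56), 0.15 (1.74) and -0.02 (1.53). Slc32a1 was 1.09 higher in S1 (SD 2.15) and Aldh5a1 1.33 higher (SD 3.97). These 2 of 5 members passed 1 log2 unit, beside 30.6% of all genes, and 0 did so with a difference above the SD over days, beside 12.8%. Both had cells at 0 behind the difference, since the V1 cells with reads were 15 of 17 for Slc32a1 and 7 for Aldh5a1, and the S1 cells 16 of 16 and 12. Without day 3, or without day 5, 0 of the 5 members passed 1 log2 unit.

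L5 was compared with L4 over days 1 to 6, which held all L5 cells. In V1, with 17 L5 and 21 L4 cells, Gad1 differed by 0.23 (SD over 2 days 0.70), Gad2 by 0.22 (0.95), Slc32a1 by -0.12 (1.50), Abat by -0.36 (3.50) and Aldh5a1 by -0.66 (0.20), L5 minus L4. Of the 5 members 0 passed 1 log2 unit, beside 32.8% of all genes, or 17% with the SD rule. Aldh5a1 was lower in L5 on both days that held at least 2 cells of each layer, with differences of -1.45 and -1.72, but its difference was 0.05 without day 3 and -1.68 without day 4. Gad2 was also lower in L5 within both days, against the direction over all cells.

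In S1, with 16 cells of each layer, Gad1 differed by -0.12 (SD over 3 days 0.59), Gad2 by 0.12 (0.23) and Aldh5a1 by -0.20 (0.61), L5 minus L4. Within days Aldh5a1 went the other way, higher in L5 on 3 of 3 days with a mean of 1.76. Slc32a1 was 1.27 higher in L5 (SD 1.66, mean within days 0.74) and Abat 1.11 higher (SD 0.69). Thus 2 of 5 members passed 1 log2 unit, beside 30.8% of all genes, and 1 of them, Abat, did so with a difference above the SD, beside 13.8%. Abat was higher in L5 on 3 of 3 days, by 0.77, 0.90 and 2.03 log2 units. This rested on the cells at 0, with reads in 15 of 16 L5 and 13 of 16 L4 cells, and the difference of the medians had the opposite sign, -0.64. Without day 2 the difference of Abat was 0.62 and 0 of 5 members passed, and without day 3 only Abat did, at 1.46.

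**Figure D5:**
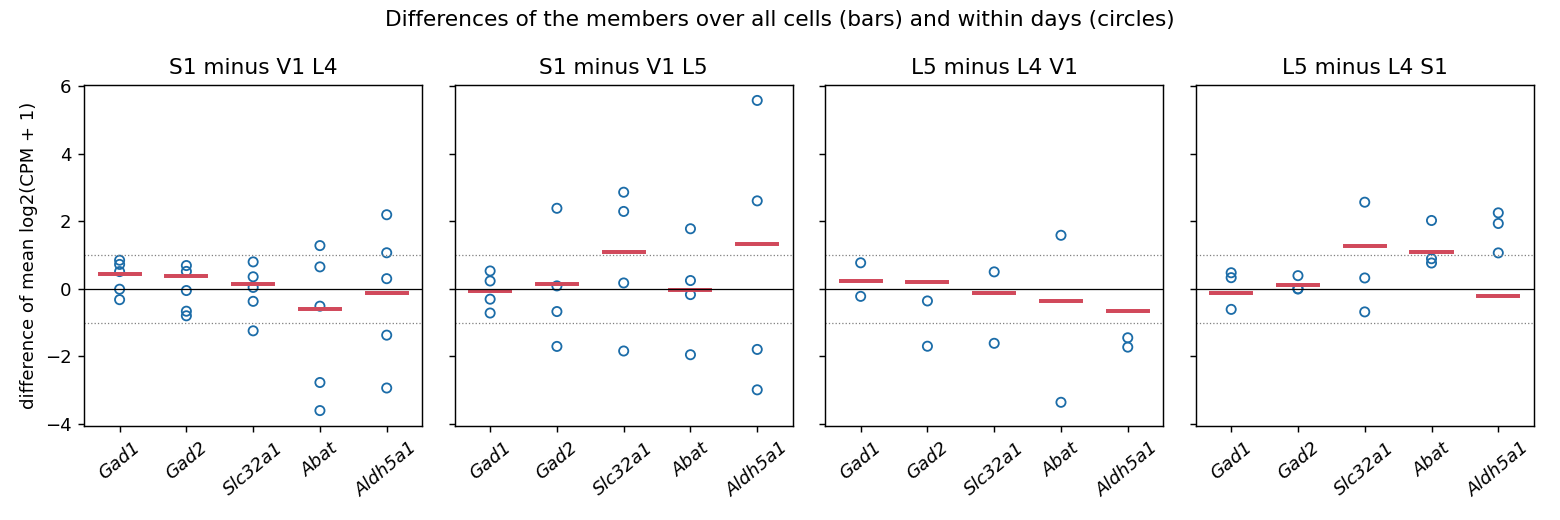
Difference of the mean log2(CPM + 1) of each member but Slc6a11 in the 4 comparisons. Red bars are over all cells, circles are single days with at least 2 cells of each group, and dotted lines mark 1 log2 unit each way. The bars of Gad1 lie between -0.12 and 0.45, and the days of Aldh5a1 and Abat spread over several log2 units.

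The neighbouring steps of the pathway were followed in 31 listed genes, of which 24 passed the filter. In L4, 4 of 24 were at least 1 log2 unit higher in S1 and 1 lower. In L5, 3 were higher in S1 and 4 lower. L5 minus L4, 7 were higher and 5 lower in V1, and 1 higher and 2 lower in S1. The shares of all genes were 14.9, 30.6, 32.8 and 30.8%, and the 5, 7, 12 and 3 of 24 genes of the list lay above that share between the areas in L4 and between the layers of V1, close to it between the areas in L5 and below it between the layers of S1. With the SD rule, 1, 3, 5 and 1 of the 24 genes remained, beside 3.79, 12.8, 17 and 13.8% of all genes. By that rule the list lay near the share of all genes, except between the layers of S1, where it lay below. The list itself was not tested.

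Among the carriers of glutamate, the precursor of GABA, Slc1a1, which encodes the neuronal transporter EAAC1, was lower in L5 than in L4 in both areas, by -1.59 log2 units in V1 (SD over 2 days 0.16) and by -1.98 in S1 (SD over 3 days 0.11), each time on all days. The SDs are of the differences within days, whose means were lower still, at -2.78 in V1 and -2.76 in S1. The medians of Slc1a1 over cells were lower in L5 as well, by -1.09 and -1.31. It was read in 15 of 17 L5 and 21 of 21 L4 cells of V1, and in 13 of 16 and 15 of 16 cells of S1. In V1 the glutamine carrier Slc38a2 was also lower in L5, by -1.77 (SD 0.55), and so was Glud1, glutamate dehydrogenase, by -1.80 (SD 0.83). Their means within days were -2.70 and -2.20. Slc38a2 was read in 15 of 17 L5 and 21 of 21 L4 cells, with a difference of the medians of -0.97. Glud1 was read in 11 of 17 and 19 of 21 cells, with a difference of the medians of -2.09.

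Of the enzymes that supply pyridoxal phosphate, the cofactor of both decarboxylases and of GABA transaminase, Pdxk was 1.07 higher in S1 than in V1 in L4 (SD over 5 days 0.98, 5 of 5 days) and 2.26 higher in L5 than in L4 of V1 (SD over 2 days 0.61). It was read in 32 of 34 S1 L4 and 34 of 42 V1 L4 cells, and the difference of the medians was -0.19. In V1 it was read in 17 of 17 L5 and 16 of 21 L4 cells, with a difference of the medians of 0.25, so that both differences of the means came with more cells at 0 in the lower group. In L5 Pdxk went the other way between the areas, by -1.51 (SD over 4 days 1.94), lower in S1 on 4 of 4 days. Among the later steps, Suclg1, a subunit of succinyl-CoA ligase, was 2.65 higher in L5 of V1 (SD over 2 days 1.22), and Sucla2, another subunit, differed by -1.46 between S1 and V1 in L5 (SD over 4 days 0.998, lower in S1 on 4 of 4 days). Dlx2, a transcription factor of developing GABA neurons, differed by -1.80 there (SD 1.73). Slc1a3, an astrocyte glutamate transporter, was read in 0 of 17 V1 L5 cells and in 5 of 16 S1 L5 cells.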

How the data were processed

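RNA of 118 single cells was analysed from the read counts per gene that the authors deposited without normalization, after alignment to mm10 with STAR 2.4.2a. The authors computed the deposited RPKM values with rpkmforgenes and RefSeq models. They served for levels per length and as an alternative. Entries that share a symbol were summed (24490 entries, 23998 symbols).

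Counts were scaled to CPM and expressed as log2(CPM + 1). Genes past the filter had at least 32 counts in at least 10 kept cells (9993 genes). A gene was counted when its means differed by at least 1 log2 unit. Differences within days (dates in the sample titles) needed at least 2 cells of each group, and the area comparisons share cells with the layer comparisons. Thinning drew 250000 reads without replacement (seed 1), leaving out 3 shallower cells. The functions were tested on simulated data.

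Named are the 6 members, pathway genes past 1 log2 unit, of which a part is given, markers set beside a member and the 3 genes most like each member. The members and lists were chosen with earlier results of these data known. Alternatives concerned filters, scaling, pseudocount, median, thinning and days. One GEO table of cell labels only was not used, and 1 gene of the pathway list is counted but not reported here. TMM scaling, an alternative, used edgeR 4.0.16 under R 4.3.3, and all other steps Python 3.11.15 with SciPy 1.17.1, pandas 2.3.3, matplotlib 3.10.9 and NumPy 2.4.6.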

Additional observations from a re-analysis of the deposited data

Results flagged for a closer look

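In the 4 S1 L4 cells without Sst reads, Slc32a1 of 1 cell stood apart from the other three, at 1.42 log2(CPM + 1) on 2 counts. In groups of this size chance sets 1 value apart in about 1 of 20 groups. Within days, Gad2 was lower in L5 on both days of V1 (-0.35 and -1.70 log2 units), and the second of these, day 5, held the L5 cell without a Gad2 read. In S1 the 3 days gave 0.40, 0.0073 and 0.00065, the last 2 of them close to 0. Over all cells the layer differences of Gad2 were 0.22 in V1 and 0.12 in S1. Those of Aldh5a1 went opposite ways within days, lower in L5 on both days of V1 and higher on 3 of 3 days of S1, and over all cells they were -0.66 and -0.20. Neither difference between the areas was tested.

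Reads of members were also present in cells that entered no comparison. A V1 L4 cell with fewer than 1500 detected genes held 196 Abat counts beside 0 of Gad1 and 3 of Gad2. The V1 L5 cell with more Slc17a7 than Gad1 and Gad2, at 585 Slc17a7 counts, held 0 reads of both decarboxylases but 14 counts of Slc32a1, 77 of Abat, 33 of Aldh5a1 and 271 of Sst.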

How the results depend on the processing

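The counts of members past 1 log2 unit moved under several settings. In L4, S1 minus V1, the count was 0, and 1 with a pseudocount of 0.1, the median over cells, days 1 to 6 only or a fold of 0.5 log2 unit. In L5, S1 minus V1, it was 2, and 1 with at least 4000 detected genes, the median or thinning, and 0 with RPKM, a pseudocount of 10 or the mean within days. Leaving out 1 day gave 0 to 2. L5 minus L4 in V1 it was 0, and 1 with a pseudocount of 0.1, the median or a fold of 0.5, and 2 with the mean within days. Leaving out 1 day gave 0 to 1. L5 minus L4 in S1 it was 2, and 1 with RPKM, and 0 with at least 4000 detected genes, a pseudocount of 10 or the median, which also turned the difference of Abat to -0.64. Leaving out 1 day gave 0 to 2. The mean within days also gave 2, with Aldh5a1 at 1.76 in place of Slc32a1 at 0.74. The median log2 ratio of Gad1 to Gad2 was higher in each group with RPKM, which divides by length, 1.14 in V1 L4, 1.28 in V1 L5, 1.42 in S1 L4 and 1.19 in S1 L5. Of 330 values of the 5 members under these alternatives, 282 kept their sign. The ratio of the cells without Sst reads was recomputed under 3 settings chosen after seeing the data, and every such cell that could be used stayed above the kept S1 L4 cells. No paired analysis was possible because no test was run on cells, and the differences within days were given in its place. A count of 0 allowed up to 30.6 CPM in the shallowest cell, and single cells at 0 cannot be told from lost reads.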
